A study of Mus musculus with 2 samples.

Results

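Macrophages of rejecting mouse heart allografts were examined by single-cell RNA sequencing in 6 hearts, 3 with and 3 without IL-33. The members were the cells that the authors' deposited annotation classes as macrophages, 429 of 4441 cells in all, and no cell was added or removed. Donor hearts came from Bm12 mice, whose altered I-A molecule is an MHC class II mismatch for the recipient, and each heart was placed into a B6 recipient and taken at postoperative day 14. Hearts 1, 2 and 3 were labelled *Il33*+/+ Bm12 (IL-33+ grafts), and hearts 4, 5 and 6 were labelled *Il33*-/- Bm12 (IL-33- grafts). The deletion was in the donor animal as a whole, the recipients could make IL-33 in both groups, and the Bm12 *Il33*-/- donors had been bred by the authors through backcrosses of Bm12 mice. The deposited data do not say whether a macrophage came from the donor or the recipient.

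Macrophages take up dying cells and debris, present antigen, and release chemokines that draw other leukocytes into tissue. In an injured heart many arise from Ly6C-high monocytes that enter from the blood, while a resident population is laid down earlier and is known for *Lyve1*, *Folr2* and *Timd4*. Interleukin 4 and interleukin 13 drive a state called alternative activation, marked in mice by arginase 1, the mannose receptor and the eotaxin *Ccl24*. IL-33 is a nuclear alarmin released from damaged stromal cells, and its receptor ST2 (*Il1rl1*) is carried mainly by Tregs, group 2 innate lymphoid cells and mast cells.

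Levels are in CPM, the UMIs of a gene scaled to a fixed total per cell, averaged over the macrophages of a heart, where a unique molecular identifier (UMI) marks 1 captured transcript. The macrophages numbered 192, 10 and 98 in hearts 1, 2 and 3 and 71, 21 and 37 in hearts 4, 5 and 6, with between 63028 and 1337790 UMIs per heart. Median depth per cell lay between 6243.5 and 7122 UMIs, the median number of genes between 2246.5 and 2385, and the median mitochondrial share between 3.59% and 4.33%. The groups overlapped in depth, genes and mitochondrial share. *Xist* and *Tsix* had no UMI in any macrophage. Heart 2 stood apart in number, since its mean rests on 10 cells, and heart 3 stood apart in the summed level of 20 immediate early and stress genes, at 24373 CPM against 9909 to 12369.8 CPM in the other hearts.

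The annotated class carried its defining markers. *Csf1r*, the receptor for the growth factor that keeps macrophages alive, had a UMI in 78.8% of macrophages, against 1.75% of B cells. *C1qa*, a chain of the complement recognition protein C1q, had one in 57.8%, against 10.4% of monocytes and 5.59% of B cells. The adhesion receptor *Adgre1* (F4/80) was found in 47.8% and the membrane protein *Ms4a7* in 26.1%. *Apoe*, which carries lipid out of cells, was found in 71.1% of macrophages, but also in 27.6% of B cells. The source of the share in B cells was not tested. Median depths were 6606 UMIs in macrophages and 2292 in B cells, and after every cell was thinned to 1500 UMIs the shares in macrophages and in 1726 B, NK, naive and central memory T cells were 38.5% and 0.927% for *Csf1r*, 45.7% and 3.07% for *C1qa*, 21.0% and 0.927% for *Adgre1*, 13.3% and 0.695% for *Ms4a7*, and 46.6% and 12.9% for *Apoe*. At least 3 of the 5 markers were present in 59.0% of macrophages, 47.4% of monocytes, 16.2% of Mo-DCs and 2.34% of cDCs. At lower cuts monocytes were level with macrophages or above them. At least 1 marker was present in 98.7% of monocytes and 95.6% of macrophages, and at least 2 in 83.8% and 82.1%. By these measures macrophages carried the markers more often than B, NK, naive and central memory T cells and cDCs, and only partly more often than monocytes. The 83 cells annotated as unconventional T cells, the deepest class (median 10175 UMIs), carried them about as often as macrophages, with *Csf1r* in 71.1%, *C1qa* in 61.4% and *Mrc1* in 57.8%. Mo-DCs were shallower, at a median of 2310.5 UMIs, which lowers a share with a UMI.

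**Figure D1:**
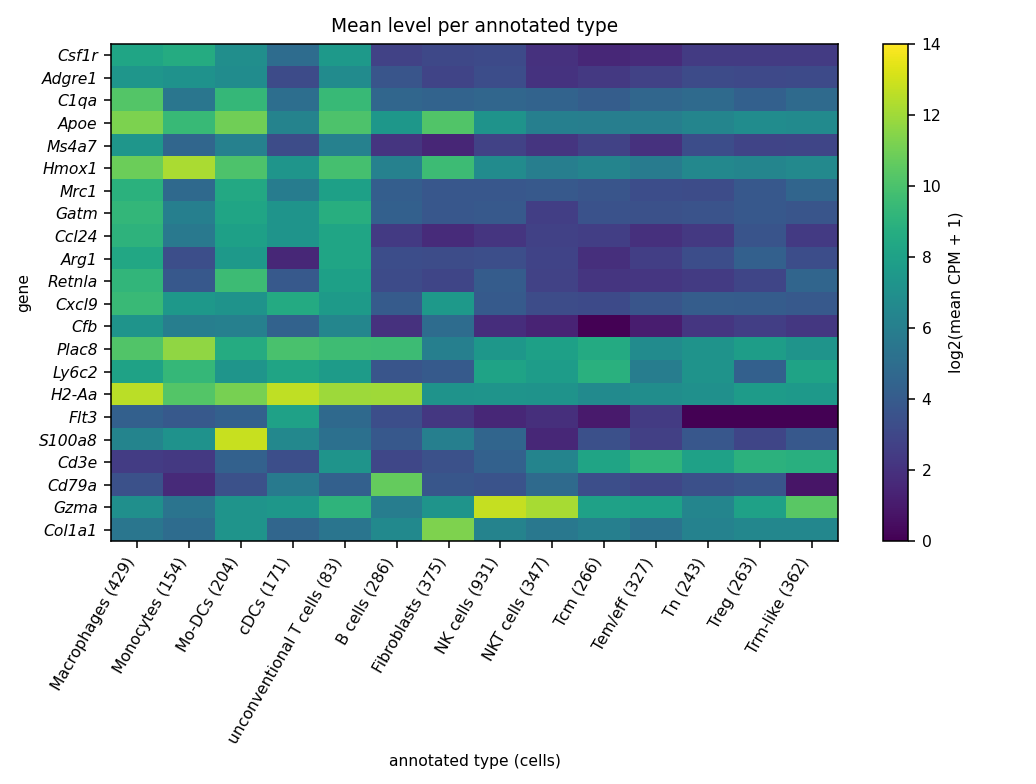
Mean level of 22 genes (rows) in the 14 annotated types (columns, with the number of cells), as log2(mean CPM + 1) on the color scale. Macrophages, in the first column, held the highest mean of *C1qa*, *Apoe*, *Ms4a7*, *Adgre1*, *Gatm*, *Ccl24* and *Cxcl9*, while *Plac8* and *Ly6c2* were highest in monocytes and *Flt3* in cDCs.

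Among 3275 genes with a macrophage mean of 50 CPM or more, 286 were highest in macrophages and 3 were at least 2-fold above every other annotated type. These 3 were *Slamf8*, a surface receptor of myeloid cells (178 CPM in macrophages and 68.1 CPM in the next type), *Ms4a7* (163 and 69.4 CPM) and *Ly6i* (220 and 107 CPM). The chemokine *Cxcl9*, which binds CXCR3 on T cells, averaged 713 CPM in macrophages and 369 CPM in cDCs. *Gatm*, the enzyme for the first step of creatine synthesis, averaged 622 CPM in macrophages, 65.4 CPM in monocytes, 300 CPM in Mo-DCs and 152 CPM in cDCs. *Cfb*, factor B of the alternative complement pathway, averaged 150 CPM in macrophages and 61.6 CPM in monocytes. *Plac8* was lower in macrophages (1164 CPM) than in monocytes (3228 CPM), as was the heme-degrading enzyme *Hmox1* (1885 and 4767 CPM). The types were defined on these same cells, so these levels describe the class and were not tested.

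Resident markers were rare. *Lyve1* had 22 UMIs in 9 macrophages, 3 from heart 1 and 6 from heart 3, *Folr2* had 42 UMIs in 22 macrophages, and *Timd4* had a UMI in 1.40% of macrophages. The scavenger receptor *Mrc1*, by contrast, was present in 51.5%, and *Ly6c2* in 34.0%, against 81.2% of monocytes.

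The cells of the class were not uniform. After each cell was thinned to 3896 UMIs, which kept 387 macrophages, *C1qa* was found in 35.0% of the 117 cells with *Ly6c2* and in 64.1% of the 270 cells without it, and the share was higher with *Ly6c2* in 1 of the 4 hearts with at least 20 such cells. *Ms4a7* was found in 9.40% of the cells with *Ly6c2* and in 24.4% of those without, with the lower share among *Ly6c2* cells in each of the 4 hearts. *Plac8* went the other way, at 88.9% with *Ly6c2* and 49.6% without. *Ccl24* was found in 42.1% of the 214 cells with *Gatm* and in 11.6% of the 173 without, higher with *Gatm* in 4 of 4 hearts. *Retnla*, a secreted protein induced by interleukin 4, was found in 18.7% of the cells with *Arg1* and in 3.41% of those without, again higher in 4 of 4 hearts. The pair *Arg1* and *Ccl24* gave 51.2% and 17.8% over all cells, but a higher share with *Arg1* in only 2 of 4 hearts. *Cxcl9* was found in 29.7% of the cells with *Mrc1* and in 46.5% of those without, lower with *Mrc1* in 4 of 4 hearts. The interferon-induced GTPase *Gbp2* was found in 80.5% of the cells with *Cxcl9* and in 36.6% of those without. These shares describe cells that share hearts and 1 pooled library, the pairs were picked after their values were seen, and no test was made.

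The share of macrophages was compared first between grafts. Macrophages were 22.2%, 4.35% and 5.88% of all annotated cells in hearts 1, 2 and 3, and 8.49%, 7.39% and 6.62% in hearts 4, 5 and 6. Heart 1 was the highest and heart 2 the lowest, so the IL-33+ hearts spanned the others (10.8% ± 9.88 against 7.50% ± 0.942, SD, n = 3 hearts per group, two-sided exact permutation test, p = 1, where 3 against 3 cannot give a p under 0.1). Among monocytes, macrophages, Mo-DCs and cDCs, macrophages made up 55.0%, 40.0% and 36.6% in hearts 1, 2 and 3 and 39.4%, 47.7% and 40.2% in hearts 4, 5 and 6. Neither difference was larger than the spread between hearts, and without heart 1 both turned to lower shares in IL-33+ grafts, by -2.39 and -4.18 percentage points.

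**Figure D2:**
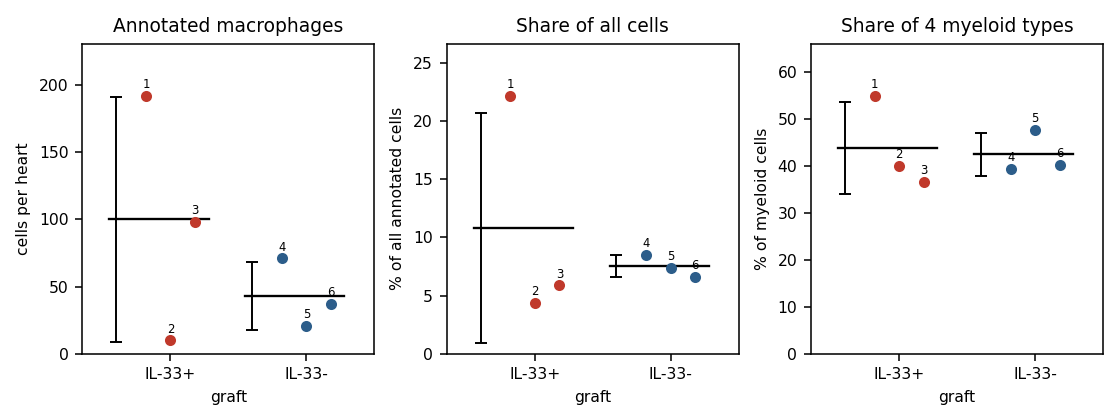
Annotated macrophages per heart (left), their percent of all annotated cells (center) and their percent of monocytes, macrophages, Mo-DCs and cDCs (right) in IL-33+ (red) and IL-33- (blue) grafts, 1 numbered point per heart, with the mean as a line and the SD as a bar (n = 3). Heart 1, with 192 macrophages and 22.2% of its cells, lies above all other hearts in each panel.

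Expression was then compared with the heart as the replicate, by limma on log2(mean CPM + 10), so that a log2 difference of 1 is a doubling at high levels and understates the change of genes at low levels. A gene is named called when its p, after Benjamini-Hochberg adjustment over all 9683 genes tested, is 0.05 or less, and nominal when the p before adjustment is. There were 0 called genes (0%) and 391 nominal genes (4.04%), and limma-voom on the recovered UMIs also called 0. Nominal genes with a 2-fold or larger difference numbered 72 at higher (0.744%) and 115 at lower levels (1.19%) in IL-33+ grafts, or 84 and 89 when hearts were scaled by the median ratio over well-expressed genes. The hearts of the groups did not overlap for 869 genes (8.97%), 370 of them higher (3.82%) and 499 lower (5.15%) in IL-33+ grafts. No gene below therefore passed the test, and differences are given as measured values with standard errors (SE). By sign alone 45.3% of genes were above and 54.7% below 0, and the median log2 difference over all genes was -0.05. All hearts were captured in 1 pooled run, so p-values measure the spread between these hearts only.

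*Gatm* (chromosome 2 of GRCm38, 122594467 to 122611303, minus strand) came closest. It averaged 917, 569 and 572 CPM in hearts 1, 2 and 3 and 184, 179 and 327 CPM in hearts 4, 5 and 6. Each IL-33+ heart lay above each IL-33- heart, with a log2 difference of 1.55 (SE 0.26, adjusted p = 0.0742 from limma). A *Gatm* UMI was found in 70.1%, 66.7% and 50% of thinned macrophages of the IL-33+ hearts and in 30.8%, 36.8% and 46.9% of those of the IL-33- hearts (exact permutation test, p = 0.1). Level and thinned share both separated the groups, while before thinning heart 6, at 62.2%, lay above heart 3, at 55.1%. *Gatm* was called when heart 3 or heart 6 was left out and when robust variance moderation was used.

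*Ccl24* (chromosome 5, 135569937 to 135573049), an eotaxin that attracts eosinophils, averaged 1041, 757 and 151 CPM in hearts 1, 2 and 3 and 22.4, 151 and 68.5 CPM in hearts 4, 5 and 6. Heart 3 of the IL-33+ grafts and heart 5 of the IL-33- grafts were alike, so the groups touched. Few cells carry most of these means, with a *Ccl24* UMI in 97, 4 and 19 macrophages of hearts 1, 2 and 3 and 5, 4 and 3 of hearts 4, 5 and 6. The log2 difference was 2.77 (SE 0.54, adjusted p = 0.239 from limma). The share of thinned cells with a *Ccl24* UMI did not overlap, at 45.98%, 33.3% and 19.3% against 7.69%, 15.8% and 6.25% (exact permutation test, p = 0.1), and at 1500 UMIs the share in lymphocytes was 0.695%.

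*Cfb* (chromosome 17, 34856374 to 34862518) was at lower levels in IL-33+ grafts. Its level was 111, 66.5 and 111 CPM in hearts 1, 2 and 3 and 246, 235 and 247 CPM in hearts 4, 5 and 6, without overlap (log2 difference -1.28, SE 0.27, adjusted p = 0.302 from limma). A *Cfb* UMI was found in 21.8%, 22.2% and 17.0% of thinned cells of the IL-33+ hearts and in 47.7%, 36.8% and 37.5% of those of the IL-33- hearts. *Sod2*, the mitochondrial superoxide dismutase (chromosome 17, 13006846 to 13040063), was at 210.3, 133 and 179.7 CPM against 335, 382 and 432 CPM (log2 difference -1.11, SE 0.24, adjusted p = 0.358 from limma). Its share of cells was also apart, at 48.3%, 33.3% and 34.1% against 49.2%, 52.6% and 62.5%, with heart 1 close to heart 4. The tetraspanin *Cd9* (chromosome 6, 125460266 to 125494791) was at 202, 253 and 229 CPM against 459, 791 and 319 CPM (log2 difference -1.07, SE 0.27), with 40.8%, 44.4% and 33.0% of thinned cells against 50.8%, 78.9% and 53.1%. Before thinning the shares with a UMI did not overlap for *Sod2* but overlapped for *Cfb* (34.4%, 40% and 27.6% against 47.9%, 42.9% and 37.8%) and *Cd9*.

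*Il10* (chromosome 1, 131019845 to 131024974), an anti-inflammatory cytokine, had lower means in IL-33+ grafts, at 18.7, 21.2 and 38.0 CPM against 61.2, 277 and 168 CPM (log2 difference -2.13, SE 0.43, adjusted p = 0.243 from limma). These means rest on 142 UMIs in 44 cells, 71.8% of them in 10 cells, and the level of heart 5 came from 1 cell with 41 UMIs. The share of thinned cells with an *Il10* UMI overlapped between groups, at 4.60%, 11.1% and 13.6% in the IL-33+ hearts and 7.69%, 5.26% and 6.25% in the IL-33- hearts. Hearts 2 and 5 had 1 cell each with *Il10*, so the share gives no direction for this gene and does not match the lower mean.

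Other genes among the 10 with the lowest p and no overlap were *Dab2*, an adaptor of endocytosis, *Crem*, a cAMP-responsive transcription factor, *Gcnt2*, which branches glycans, the orphan nuclear receptor *Nr4a2* and the membrane semaphorin *Sema4d*. *Dab2* was at 126, 235 and 221 CPM in hearts 1, 2 and 3 and 84.7, 60.9 and 78.1 CPM in hearts 4, 5 and 6. *Crem* was at 281, 272 and 339.5 CPM against 149, 100.4 and 190.1 CPM, and *Nr4a2* at 226, 213 and 442 CPM against 141, 84.8 and 155 CPM. For these 3 genes the IL-33+ hearts were the higher ones. *Sema4d* was at 190.5, 163 and 205 CPM against 398, 379 and 309.7 CPM, so its IL-33+ hearts were the lower ones. Log2 differences were 1.24 for *Dab2*, 1.01 for *Crem*, 1.27 for *Gcnt2*, 1.11 for *Nr4a2* and -0.92 for *Sema4d*, with adjusted p between 0.813 and 0.959 from limma.

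**Figure D3:**
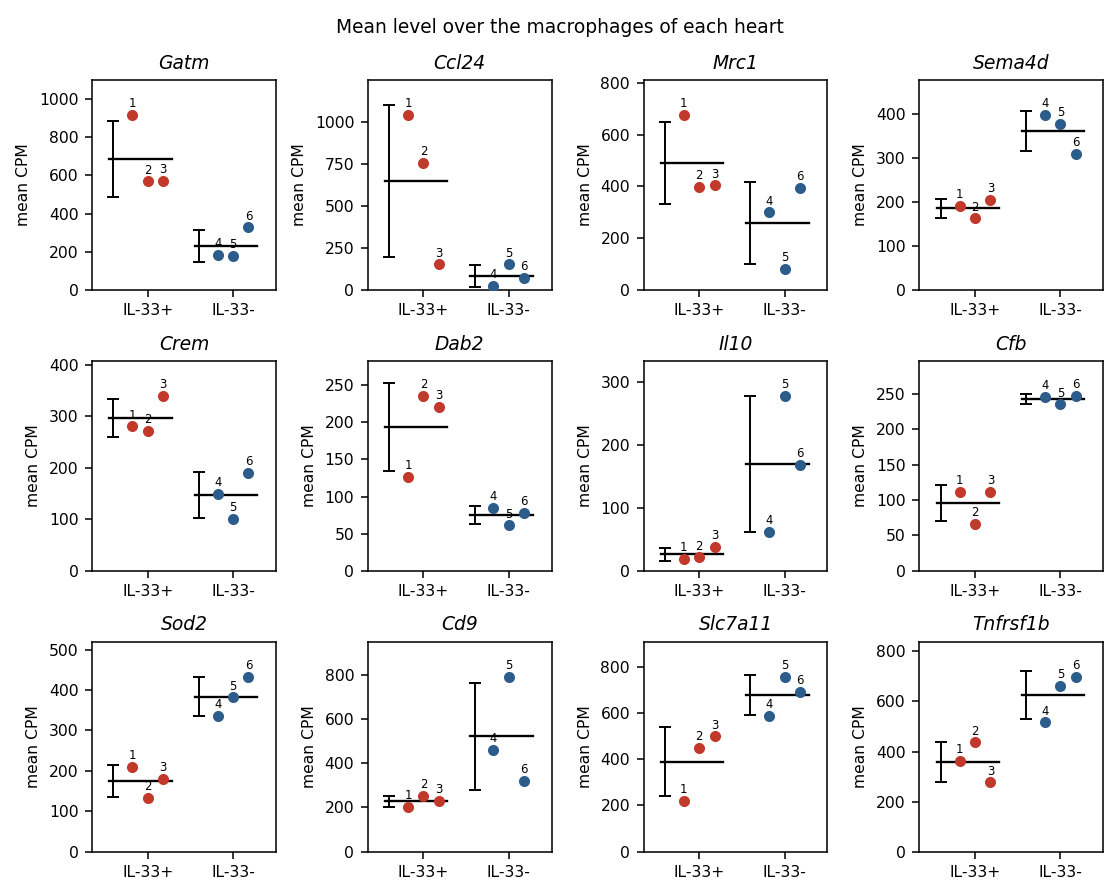
Mean level (CPM, linear axes) of 12 genes over the macrophages of each heart in IL-33+ (red) and IL-33- (blue) grafts, with numbered hearts, the mean as a line and the SD as a bar (n = 3). Hearts of the groups do not overlap in 11 of the 12 panels, and overlap for *Ccl24*, where hearts 3 and 5 were both at 151 CPM. Most of these genes were picked because their groups do not overlap, so the count of panels is no result. Over all genes tested 8.97% did not overlap.

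Alternative activation genes formed the list with the highest median. Of 28 genes, 26 were tested and 0 called, 21 were above and 5 below 0 in log2 difference, and the median was 0.63. Nominal members were 9 higher and 1 lower, where 1.82% and 2.22% of all genes were nominal in these directions, and 5 higher and 2 lower members did not overlap (3.82% and 5.15% of all genes). *Mrc1* was at 676, 398 and 404 CPM against 299.6, 81.9 and 394 CPM, with no overlap although hearts 2 and 6 were within a few CPM (log2 difference 1.11, SE 0.38). *Il4ra*, the chain that interleukin 4 and interleukin 13 receptors share, was at 193, 225 and 194 CPM against 150.2, 101 and 144 CPM (log2 difference 0.61, SE 0.26). The transglutaminase *Tgm2* was at 413, 446 and 1304 CPM against 282, 524 and 282 CPM, with heart 3 far above the rest. *Il10* was the member with the lowest value. Part of this list was named by the study from these same hearts, so its count is no independent evidence of a direction. The median stayed above 0 in every alternative, between 0.30 and 1.08.

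*Retnla* and *Arg1* show how few cells can carry such a mean. *Retnla* gave 1949 UMIs, all of them in 42 macrophages, and 85.7% of the UMIs lay in 10 cells. Heart 5, with the highest mean (871 CPM), had 1 cell with *Retnla*, whereas heart 1 had 25. By share of thinned cells, where hearts 2, 5 and 6 had 1 cell each with *Retnla*, the values were 10.3%, 11.1% and 9.09% in the IL-33+ hearts and 4.62%, 5.26% and 3.12% in the IL-33- hearts, without overlap (exact permutation test, p = 0.1), so that mean and share both rest on few cells. *Arg1* was at 453, 127 and 404 CPM against 106, 185 and 88.4 CPM (log2 difference 1.19, SE 0.37). When cells with at least 2 T, NK or B cell markers were removed, heart 2 had no *Arg1* UMI left in 8 cells and the log2 difference became -0.18. Dendritic cell markers were higher in IL-33+ grafts without overlap, with a summed level over 10 genes of 299 to 380 CPM against 43.3 to 243 CPM. All 10 were detected, and *Cd209a* is also in the alternative activation list. Within a graft group the summed levels of these lists did not run together. Heart 2 had the highest dendritic sum but the lowest alternative activation sum of the IL-33+ hearts (3826 CPM). Heart 5 had the lowest dendritic sum but the highest alternative activation sum of the IL-33- hearts (3536 CPM). Endothelial markers, all 10 detected but only 6 with enough UMIs to be tested, were also higher without overlap (135 to 187 against 88.7 to 108 CPM). Cardiomyocyte markers were lower without overlap (20.5 to 52.3 against 65.2 to 115 CPM), with *Myh6* and *Myl7* at 0. Only 1 of these 10 genes had enough UMIs to be tested, so their sum is no measure of cardiomyocyte RNA. At 1500 UMIs *Tpm1* was in 5.13% of macrophages and 6.66% of lymphocytes, and the next member, *Tnni3*, in 0.699% of macrophages. The part of these markers in any graft difference was not tested.

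Genes of blood monocytes were mostly at lower levels in IL-33+ grafts, 16 of 19 tested, with a median log2 difference of -0.38 and 0 called. Nominal members were 2 lower and 0 higher, where 2.22% and 1.82% of all genes were nominal in these directions. *Ly6c2* was at 127, 504 and 220.0 CPM against 575, 376 and 352 CPM, where heart 2 lay within the range of the IL-33- hearts (log2 difference -0.78, SE 0.34). The median of the list was below 0 in every alternative, between -0.54 and -0.03. Of the resident list 15 genes were tested, 9 of them higher, with a median of 0.23. Its direction turned without heart 3, to a median of -0.37 with 4 of 12 tested higher, and with thinned cells, to -0.07. With 10 cells drawn per heart it also turned, to -0.09 with 5 of 10 tested higher. The chemokine *Pf4* was at 41.4, 21.2 and 206 CPM against 189.6, 162 and 138 CPM, with heart 3 unlike hearts 1 and 2 (log2 difference -1.29, SE 0.47).

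Some lipid handling genes showed the same split within the IL-33+ group. *Apoe* was at 956, 1457 and 4358 CPM in hearts 1, 2 and 3 and 2590, 1993 and 4734 CPM in hearts 4, 5 and 6. *Spp1* (osteopontin) was at 394, 103 and 1154 CPM against 656, 1064 and 1147 CPM, and the fatty acid receptor *Cd36* at 52.0, 15.2 and 232 CPM against 227, 368 and 169 CPM. In each, hearts 1 and 2 lay below all IL-33- hearts, while heart 3 lay among them for *Apoe* and *Cd36* and at their upper end for *Spp1*. *Ms4a7* followed the same order, at 76.8, 44.0 and 288 CPM against 151, 240.2 and 293 CPM. The log2 differences were -0.67 for *Apoe*, -1.32 for *Spp1*, -1.80 for *Cd36* and -1.04 for *Ms4a7*, and without heart 3 they were -1.29, -2.13, -2.67 and -1.75 and were called. All 25 genes of the list were tested, with 19 below and 6 above 0, a median of -0.25 and, over the alternatives, medians between -0.38 and -0.15. Members without overlap were 2 lower and 0 higher (5.15% and 3.82% of all genes). *Cd9*, 1 of the 2, was lower in all IL-33+ hearts and did not show this split.

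Lysosome and iron genes leaned the same way. Of 28 lysosome genes 21 were lower, with a median of -0.23, 5 lower and 0 higher without overlap (5.15% and 3.82% of all genes), and 0 called. Lysozyme M, *Lyz2*, was at 1125, 2452 and 1761 CPM against 3155, 4308 and 2188 CPM (log2 difference -0.87, SE 0.26), with heart 2 above heart 6. Of 17 iron and heme genes tested, 12 were lower. The cystine transporter *Slc7a11* was at 221, 449.9 and 499 CPM against 589, 757 and 692 CPM, without overlap (log2 difference -0.86, SE 0.26). *Hmox1* was at 1544, 1583 and 1762 CPM against 2285, 1739 and 3383 CPM, with heart 5 below heart 3 (log2 difference -0.54, SE 0.21). Hemoglobin transcripts, which macrophages do not make, were at 1074, 2028 and 2585 CPM in hearts 1, 3 and 4 and at 53.2 to 77.8 CPM in hearts 2, 5 and 6, and their part in these values was not tested.

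**Figure D4:**
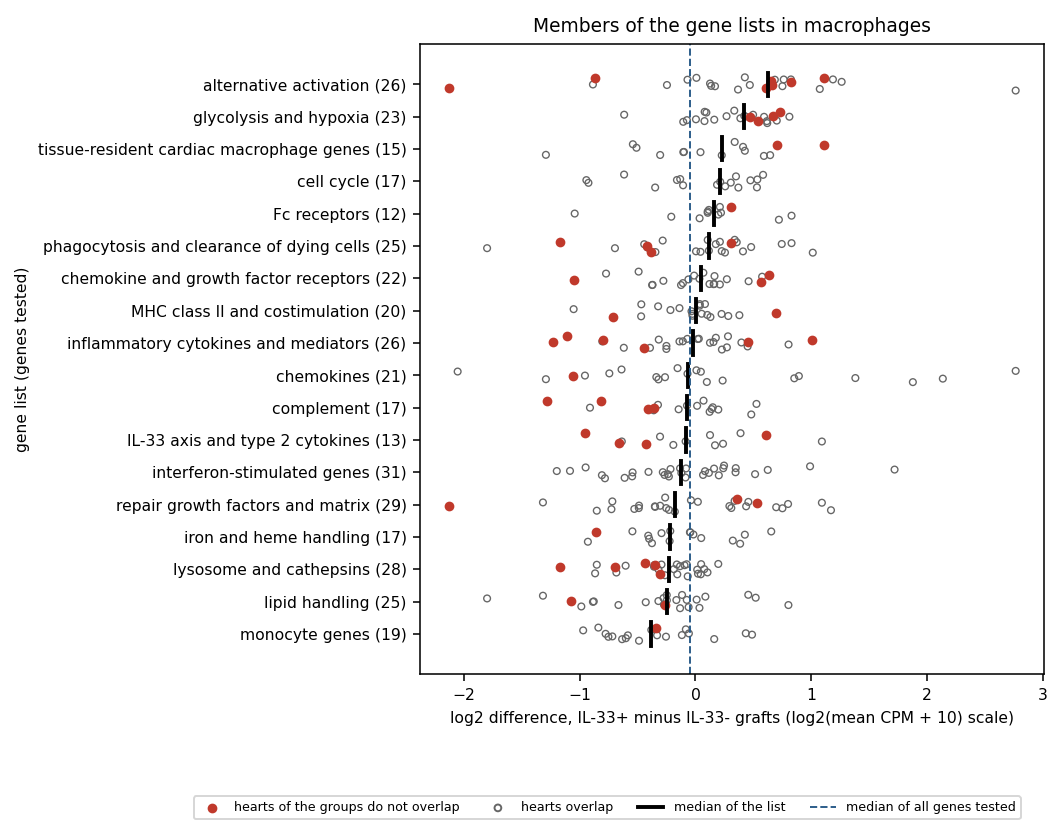
Log2 difference (IL-33+ minus IL-33- grafts, on the log2(mean CPM + 10) scale) of each tested member of 18 gene lists in macrophages, with the number tested in brackets, red points where the hearts of the groups do not overlap, black bars at list medians and a dashed line at the median of all genes (-0.05). Medians run from -0.38 for monocyte genes to 0.63 for alternative activation, and members of every list lie on both sides of 0.

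Inflammatory mediators were divided, 13 higher and 13 lower among 26 tested, with a median of -0.03. *Tnfrsf1b*, the second TNF receptor, was at 363, 437 and 277 CPM against 517, 664 and 698 CPM, without overlap (log2 difference -0.80, SE 0.22). *Il1b* was at 487, 523 and 1443 CPM against 365, 347 and 529.7 CPM, where hearts 1 and 2 lay just below heart 6 (log2 difference 0.80, SE 0.31). Complement genes had a median of -0.07 over 17 tested and ran from -1.28 (*Cfb*) to 0.53, and 4 of them, *Cfb* included, were lower without overlap (5.15% of all genes).

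The chemokine list had 10 higher and 11 lower genes of 21 tested, and its extremes were wide, from -2.05 to 2.77. *Ccl12*, a monocyte attractant of mice, was at 61.5, 297 and 399.97 CPM against 120.0, 19.6 and 17.5 CPM, with heart 4 above heart 1 (log2 difference 2.14, SE 0.56). *Cxcl3*, which acts on neutrophils through CXCR2, was at 28.7, 48.0 and 88.6 CPM against 315, 597 and 70.4 CPM, and 73.1% of its 443 UMIs lay in 10 cells (log2 difference -2.05, SE 0.50). The interferon gamma receptor chain *Ifngr1* was at 279, 300.4 and 248 CPM against 184, 174 and 188 CPM, without overlap (log2 difference 0.57, SE 0.23). *Csf3r*, the receptor of the granulocyte growth factor, was at 51.0, 26.5 and 55.6 CPM against 75.9, 142 and 88.4 CPM, lower in the IL-33+ hearts without overlap (log2 difference -1.05, SE 0.36). Neutrophil markers, of which *Csf3r* is one, summed to 2950.2 CPM in heart 5 and to 241 to 346 CPM in the other hearts, and their part in it was not tested.

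MHC class II and costimulation genes, 20 tested, were divided into 10 above and 10 below 0 with a median of 0.01. Members without overlap were 1 higher and 1 lower, near the shares over all genes (3.82% and 5.15%). The higher was the PD-1 ligand *Pdcd1lg2*, at 68.3, 67.6 and 55.2 CPM against 35.4, 49.8 and 24.5 CPM, and the lower was *Icosl*, with 15 UMIs in all, both named after their values were seen. The invariant chain *Cd74* was at 12099, 15290 and 9866 CPM in hearts 1, 2 and 3 and 15016, 10974 and 10248 CPM in hearts 4, 5 and 6, and *H2-Aa* at 6283, 8803 and 4575 CPM against 7076, 5855 and 5467 CPM. For *Cd74* and *H2-Aa* the orders cross between the groups. Interferon-stimulated genes had a median of -0.12 over 31 tested, which turned to 0.09 without heart 2 and 0.05 without heart 4. Of these genes 0 were free of overlap, beside 8.97% of all genes. *Iigp1*, a GTPase induced by interferon gamma, was at 34.0, 161 and 202 CPM against 24.8, 10.2 and 53.3 CPM (log2 difference 1.72, SE 0.51), while *Gbp5* was at 58.5, 9.92 and 43.0 CPM against 53.2, 95.6 and 93.3 CPM (log2 difference -1.08, SE 0.44).

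Glycolysis and hypoxia genes leaned to higher levels in IL-33+ grafts, 20 of 23 tested, with a median of 0.42, 4 higher and 0 lower without overlap (3.82% and 5.15% of all genes), and 0 called. Lactate dehydrogenase, *Ldha*, was at 563, 435 and 493 CPM against 338, 335 and 257 CPM (log2 difference 0.67, SE 0.22). The isomerase *Gpi1* was at 366, 298 and 365 CPM against 205, 280.0 and 214 CPM (log2 difference 0.54, SE 0.23). *Pgk1* was at 1179, 618 and 699.8 CPM against 381, 721 and 421 CPM, with heart 5 above hearts 2 and 3 (log2 difference 0.70, SE 0.26). The median of the list lay between 0.17 and 0.59 over the alternatives. Immediate early and stress genes, a list of RNA quality and handling, leaned the same way, 18 of 20 higher with a median of 0.35 and 7 higher without overlap (3.82% of all genes), and their summed level was highest in heart 3. Without heart 3 the median was 0.07, with 11 of 20 higher. Their part in the other lists was not tested.

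Remaining lists gave little. Phagocytosis genes had 16 higher and 9 lower of 25 tested and a median of 0.12, Fc receptor genes 10 higher and 2 lower of 12 and a median of 0.16, cell cycle genes 10 higher and 7 lower of 17 and a median of 0.21, repair and matrix genes 13 higher and 16 lower of 29 and a median of -0.18, and none held a called gene. The phagocytosis median turned to -0.23 without heart 3 and to -0.04 with thinned cells. The repair median turned to 0.16 without heart 2 and 0.20 without heart 5. *Vegfa*, the endothelial growth factor, was at 320.1, 241 and 684 CPM against 238, 266 and 187 CPM. The activating receptor *Cd300lb* was at 31.9, 0 and 36.2 CPM against 45.3, 42.0 and 67.3 CPM from 113 UMIs, and *Fcgr4* at 157, 94.6 and 191 CPM against 114, 34.6 and 103 CPM.

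The macrophages gave little signal of the IL-33 axis itself. *Il1rl1* had 4 UMIs in 3 macrophages, all of heart 3, *Il13* had 1 UMI and *Il4* had 0 in 429 macrophages. *Il33* had 8 UMIs, 4, 1 and 3 in hearts 1, 2 and 3 and 0 in hearts 4, 5 and 6, where 0 allows up to 3 counts, so these counts do not check the labels. *Myd88*, the adaptor of ST2, interleukin 1 and Toll-like receptors, was at 57.6, 14.1 and 69.3 CPM against 79.2, 99.7 and 85.8 CPM, lower in the IL-33+ hearts without overlap (log2 difference -0.95, SE 0.41). Of 13 genes of the axis tested, 6 were higher and 7 lower.

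Whether a graft difference was particular to macrophages was tested on the difference between types within each heart. Against monocytes 0 of 7104 genes were called (0%), with 294 nominal (4.14%). Against Mo-DCs 0 of 5664 (0%) were called, with 202 (3.57%), and against cDCs 0 of 7755 (0%), with 395 (5.09%). *Gatm* had a log2 difference of 1.55 in macrophages, -0.94 in monocytes, 1.70 in Mo-DCs and 0.43 in cDCs, and the difference between macrophages and monocytes was 2.49 (SE 1.15, adjusted p = 0.930 from limma). *Cfb* was at -1.28 in macrophages, -1.79 in monocytes, -0.46 in Mo-DCs and 0.72 in cDCs. For *Sod2* the values were -1.11, -0.63, -0.66 and -0.19. Alternative activation genes tested in both types had a median of 0.65 in macrophages in each pairing. Beside it the median was 0.29 in monocytes over 13 genes, 0.25 in Mo-DCs over 19 genes and 0.01 in cDCs over 19 genes. Hearts 2 and 5 held 5 and 7 monocytes and 4 and 7 Mo-DCs, which limits this test, and no graft difference is shown to be particular to macrophages.

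Leaving out 1 heart at a time shows which hearts carry each value. *Gatm* stayed between 1.33 and 1.83, *Sod2* between -1.25 and -0.94, *Cfb* between -1.39 and -1.06 and *Dab2* between 1.08 and 1.51. *Mrc1* dropped to 0.46 without heart 5, and *Spp1* moved to -0.45 and *Ms4a7* to -0.52 without heart 2. Without heart 3, 13 genes were called, among them *Ccl24*, *Gatm*, *Il10*, *Cfb* and *Sod2* together with *Apoe*, *Spp1*, *Cd36*, *Ms4a7* and *Pf4*. Without heart 1 only *Ccl7* was called, and without heart 2 or heart 5 none was (427 and 227 nominal genes). Nominal genes at 2-fold or more, 72 higher and 115 lower with all hearts, were 103 and 41 without heart 2, and 89 and 259 without heart 3.

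**Figure D5:**
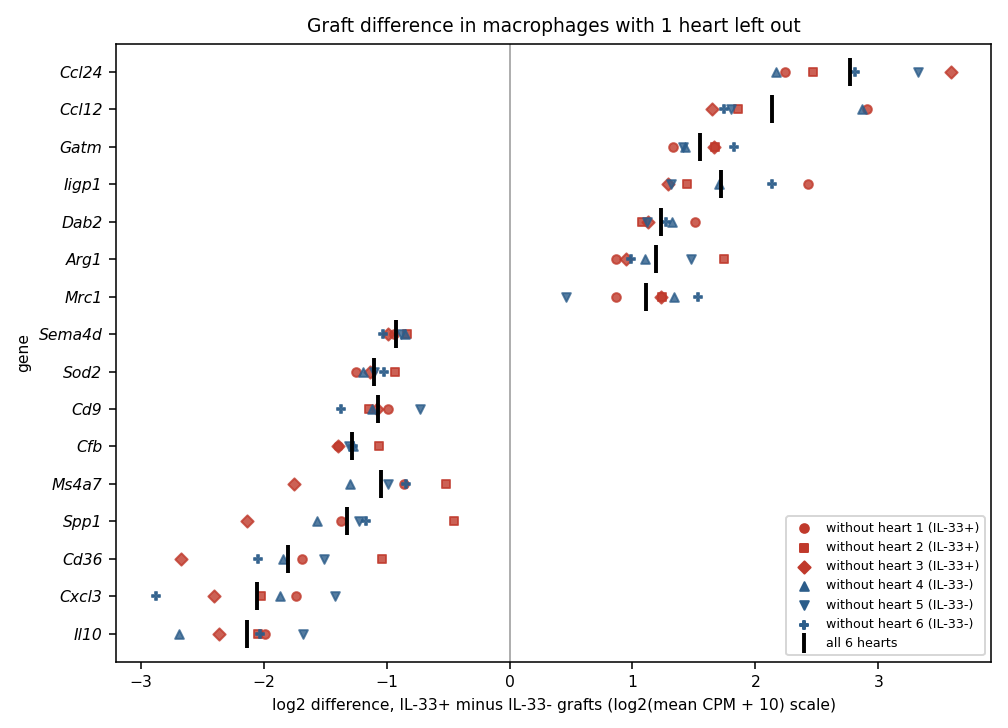
Log2 difference of 16 genes (IL-33+ minus IL-33- grafts, log2(mean CPM + 10) scale) with all 6 hearts (black bars) and with each heart left out in turn (symbols, red for IL-33+ and blue for IL-33- hearts). Every gene keeps its sign, and *Ms4a7*, *Spp1* and *Cd36* move toward 0 without heart 2 and away from it without heart 3.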

How the data were processed

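Cells of 6 hashtagged hearts, pooled in 1 capture run, had been aligned and counted by the authors with Cell Ranger (mm10) and filtered and classified in Partek (10.0.23.0425), per the submitters' processing notes. Hearts had been perfused, digested with collagenase and cleared of debris, so shares describe isolated cells, and cells of different hearts share free RNA. The deposited expression table holds log2(CPM + 1) values per cell, made by the authors. Here values were back-transformed, and UMIs were recovered (99.94% of low values whole within 0.05). The 22 symbols for which the table holds a mean of several gene IDs are not named. Graft came from the deposited annotation and heart from its hashtag column. No cell was removed and no doublet caller was run in the reported values, and 0 barcodes were shared.

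Mean CPM per heart was tested with limma 3.58.1 (R 4.3.3) on log2(CPM + 10). Genes tested had 10 or more UMIs summed over all hearts and any UMI in 3 or more hearts. Differences between types were tested on within-heart differences of the same values. Shares were compared by two-sided exact permutation over hearts (scipy 1.17.1, with pandas 2.3.3, numpy 2.4.6, Python 3.11.15 and matplotlib 3.10.9). For shares of cells with a UMI, cells were thinned to 3896 UMIs, which left out 42 of 429 macrophages. Named genes were the 5 markers, the 10 with the lowest p and no overlap between groups, and, per list, up to 3 with the lowest p and the 2 with the highest mean. Some genes that the study names in macrophages, such as *Retnla*, were also named, and the study reported them from these same hearts. Genes named for few UMIs, the hearts they came from, or pairs of genes in a cell were chosen after their values were seen. Members and lists were chosen with earlier results of these data known. Coordinates are GENCODE vM21 genes matched by symbol. The scripts were tested on simulated data. Alternatives changed the filter, pseudocount, scaling, test, cells and hearts.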

Additional observations from a re-analysis of the deposited data

How the results depend on the processing

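Of 794 values for 42 genes under the alternatives, 766 kept their direction and side of the threshold, 19 became called and 9 changed sign. No paired analysis was possible because the hearts of the groups share no numbers. Called genes, 0 in the reported fit, numbered 1 with robust variance moderation, 2 without hearts 2 and 5 (*Arg1*, *Retnla*), 9 without cells with markers of other types, and 0 to 13 with 1 heart left out (1 without heart 1 or heart 4, 2 without heart 6, 13 without heart 3). Nominal genes at 2-fold or more, 72 higher and 115 lower, were 43 and 64 with no filter, 6 and 6 at a pseudocount of 50 CPM, 134 and 124 with limma-voom, 35 and 62 with 10 cells per heart, and 40 lower without hearts 2 and 5. With 1 heart left out they ran from 61 to 116 higher (109 without heart 1, 116 without heart 4) and from 41 to 259 lower (240.0 without heart 1, 41 without heart 2, 259 without heart 3, 73 without heart 5). Differences in the macrophage share ran from -2.39 to 6.52 percentage points of all cells and from -4.18 to 5.04 of myeloid cells, with -2.39 and -4.18 without heart 1 and -0.112 of myeloid cells without heart 4. The share of cells with a UMI ran from 20.2 to 30.2 points for *Gatm*, 16.4 to 29.7 for *Ccl24*, -22.2 to -16.8 for *Cfb*, -21.1 to -12.4 for *Sod2* and -26.6 to -12.5 for *Cd9*.

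Removing every cell with at least 2 markers of another type left 45 macrophages, 1 of them in heart 2, moved the median of all genes to -0.19, and changed the sign of *Pf4* (1.39), *Cd36* (0.00877), *Apoe* (1.44), *Pgk1* (-1.03), *Iigp1* (-0.30), *Ifngr1* (-1.09), *Ms4a7* (0.82) and *Il4ra* (-0.53), and the cause was not tested. Fibroblast markers accounted for most of this loss, since 345 of the 429 macrophages held at least 2 of them. Their summed level in macrophages was 2061 CPM in heart 5 and 804 to 1157 CPM in the other hearts, and their part in the values was not tested. *Arg1* became -0.18 without cells with lymphocyte markers, an alternative chosen after seeing the data, as was leaving out hearts 2 and 5. Hearts 2 and 5, with 10 and 21 macrophages, limit the precision of every value.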

Other observations

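Antiviral interferon genes were high in the macrophages of 1 heart of each graft. The summed level of *Isg15*, *Ifit1*, *Ifit2*, *Ifit3* and *Rsad2*, which type I interferon induces, was 901 and 1155 CPM in hearts 3 and 4 and 108 to 189 CPM in hearts 1, 2, 5 and 6. *Isg15* had a UMI in 49 of 98 macrophages of heart 3 and in 37 of 71 of heart 4. The same genes summed to 963 CPM in monocytes of heart 4 and 172 CPM in those of heart 3, and to 16.3 to 170 CPM in cDCs. In Mo-DCs hearts 3 and 4 were also the highest, at 780 and 696 CPM against 270 to 515 CPM in the others.

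*Hbb-bs*, a globin of red cells, had 2048 UMIs in 105 macrophages, and 95.1% of these lay in 10 cells. *Fos* was at 1430 CPM in heart 3 and 279 to 664 CPM in the others, and the heat shock gene *Hspa1a* at 443 CPM in heart 3 and 0 to 54.0 CPM in the others. *Areg*, an epidermal growth factor ligand, had 73 UMIs in 19 macrophages, 8 each in hearts 1 and 3. *Nos2* was found in 4.70% of thinned macrophages with *Cxcl9* and in 0% of those without.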
